A study of Mus musculus with 6 samples.

Results

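The genes described here encode the enzymes and carriers of glycolysis and of the pentose phosphate pathway, with a few glycogen enzymes beside them. They were chosen by symbol, and a symbol was matched to its row of the count table through the Ensembl ID in the GENCODE M21 annotation of the mouse genome build GRCm38. All 36 symbols were found among the 55487 genes of the table. In pathway order they cover glucose uptake (Slc2a1, Slc2a3, Slc2a6), hexokinase (Hk1, Hk2, Hk3), glucose-6-phosphate isomerase (Gpi1), phosphofructokinase (Pfkl, Pfkm, Pfkp) and the bifunctional enzymes that set its activator (Pfkfb3, Pfkfb4). The lower pathway is covered by aldolase (Aldoa, Aldoc), Tpi1, Gapdh, Pgk1, Pgam1, enolase (Eno1, Eno2), pyruvate kinase (Pkm), lactate dehydrogenase (Ldha, Ldhb) and the lactate carriers Slc16a1 and Slc16a3. The pentose phosphate genes are G6pdx, Pgls, Pgd, Rpia, Rpe, Tkt and Taldo1, and the glycogen genes are Pgm1, Pgm2, Gys1 and Gbe1.

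Glycolysis splits glucose into pyruvate, and lactate dehydrogenase turns pyruvate into lactate, which leaves the cell through monocarboxylate carriers. The steps catalysed by hexokinase, phosphofructokinase and pyruvate kinase are the textbook control points, and most steps are served by several isozymes encoded by separate genes. The pentose phosphate pathway branches off at glucose-6-phosphate. Its oxidative arm makes NADPH, which phagocytes use for the oxidative burst, and its non-oxidative arm exchanges sugar phosphates with glycolysis. Macrophages are known to raise glycolysis on inflammatory stimulation, and osteoclasts form from them under RANKL and M-CSF.

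RNA-seq counts were made from 6 samples of RAW264.7, a macrophage line of mouse origin able to become osteoclasts. All 6 samples were treated with RANKL and M-CSF. In 3 samples, titled SMART-Cas9 and given the genotype RhoA knockout, the small GTPase gene Rhoa had been targeted with Cas9; their libraries are called knockout-labelled below. The other 3 were controls of wt genotype, which the design text calls untreated. No group received Cas9 without the targeting of Rhoa, so the Cas9 treatment and the edit cannot be told apart. The design text gives loss of RhoA in macrophages and bone destruction in rheumatoid arthritis as the setting. A single cell line was used, and the labels do not say whether the samples of a group came from separate cultures, so the p-values speak only of how these samples vary, and that variation may be technical. In bulk samples of this kind, fewer cells of a type and less RNA per cell cannot be told apart.

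Totals were 71777994 to 81830819 counts in the knockout-labelled libraries and 60198645 to 79918899 counts in the control libraries. The Rhoa transcript was not reduced in the knockout-labelled libraries, which held 2805, 2670 and 2395 counts, against 1655, 1510 and 1440 counts in the control libraries. Its scaled level gave a log2 fold change of 0.41 ± 0.12 (SE; edgeR adjusted p = 0.0136, and 0.0741 without knockout replicate 1 or 0.0645 without control replicate 1). Every direction below is therefore that of the knockout-labelled libraries against the control libraries. Spp1, which encodes osteopontin, took 9.44 to 10.8% of the counts in the knockout-labelled libraries and 32.8 to 33.9% in the control libraries. Of 11 macrophage markers 0 were at 0 in all libraries, and their summed level was 84072 to 117672 CPM in the knockout-labelled libraries, against 20482 to 22001 CPM in the control libraries. Lyz2, the lysozyme gene, made up most of that sum, at 76862 to 108784 CPM in the knockout-labelled libraries and 15598 to 17524 CPM in the control libraries, and the other 10 summed to 7210 to 8889 CPM in the knockout-labelled libraries and 4279 to 4884 CPM in the control libraries. By the test of all genes described below, 5 of the 11 were higher (Lyz2, Csf1r, Cd68, Fcer1g and Tyrobp), 4 were lower (Itgam 4.03-fold, Cd14 1.495-fold, Adgre1 1.42-fold and Ptprc 1.31-fold) and 2 were not called. Of 9 osteoclast markers Calcr and Oscar were at 0 in all 6 libraries, and the sums were 27.2 to 27.3 CPM in the knockout-labelled libraries against 23.9 to 27.7 CPM in the control libraries. Those sums hold genes that moved in opposite directions: of 6 tested, Ctsk (2.14-fold) and Atp6v0d2 (1.53-fold) were higher, and Mmp9 (4.16-fold), Acp5 (2.70-fold) and Dcstamp (1.70-fold) lower. Over all genes tested 21% were higher and 22.3% lower. The part of either marker list in the results below was not tested. Replicate 3 stood apart in both groups, with a chi-square of its counts, per degree of freedom, of 68.3 and 84.5 against the other knockout-labelled libraries (22.3 between those) and of 73.9 and 82.7 against the other control libraries (17.6 between those). Without replicate 3 of both groups, a choice made after the data had been seen, 16 of the 35 tested pathway genes were higher and 8 lower. Of all 13281 genes tested in that setting 2485 were higher and 2482 lower.

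The lower pathway from aldolase to lactate dehydrogenase was higher for 8 of 10 tested genes in the knockout-labelled libraries. Genes of glucose uptake, hexokinase and the pentose phosphate pathway were found in both directions. Over all genes tested 21% were higher and 22.3% lower. Together the 36 genes held 5.29, 5.19 and 5.51% of all counts in the knockout-labelled libraries, against 1.63, 1.66 and 1.66% in the control libraries. With the counts of Spp1 taken out of the totals, the shares were 5.85, 5.76 and 6.17% in the knockout-labelled libraries against 2.42, 2.51 and 2.47% in the control libraries. The groups did not overlap on either reckoning. Genes from aldolase to lactate dehydrogenase made up 97.5 to 97.9% of these counts in the knockout-labelled libraries and 94.1 to 94.5% in the control libraries. Ranked among all genes of a library, Pkm was the 9th, 9th and 8th most counted in the knockout-labelled libraries and the 16th, 16th and 14th in the control libraries, and Ldha ranked 15, 15 and 14 in the knockout-labelled libraries against 24, 22 and 28 in the control libraries.

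Counts were compared gene by gene with edgeR's quasi-likelihood test, with Benjamini-Hochberg adjustment over 12930 genes and a threshold of 0.05. Levels are in CPM, counts relative to the size of the library, after TMM scaling, which holds the bulk of genes constant between libraries. Of all genes tested 43.2% passed, 21% as higher and 22.3% as lower in the knockout-labelled libraries. These were 2713 and 2879 genes, and 3097 and 2083 when libraries were scaled by their totals alone, which moved the all-gene median log2 fold change to 0.15. Of the 35 pathway genes tested 16 were higher, 9 were lower and 10 did not pass, and 18 were higher and 8 lower with totals alone. Ldhb, the other lactate dehydrogenase subunit gene, had 0 counts in all 6 libraries and was not tested. At least 2-fold differences were found for 12 genes as higher and 6 as lower, against 11.2 and 14.7% of all genes. For 16 genes all 3 knockout-labelled libraries lay above all 3 control libraries, and for 10 genes below them, against 27.5 and 28.3% of all genes. The median log2 fold change of the 35 genes was 0.26, beside -0.03 over all genes tested. In the 10 tested genes from aldolase to lactate dehydrogenase, 8 were higher, Eno2 was lower and Gapdh did not pass, and the median was 1.29. Those counts of 8 and 1 were the same under all 16 alternative settings tried. In the 12 genes from uptake to the control of phosphofructokinase 5 were higher and 3 lower. In the 7 pentose phosphate genes 2 were higher and 3 lower (2 lower with totals alone), with a median of -0.16.

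**Figure D1:**
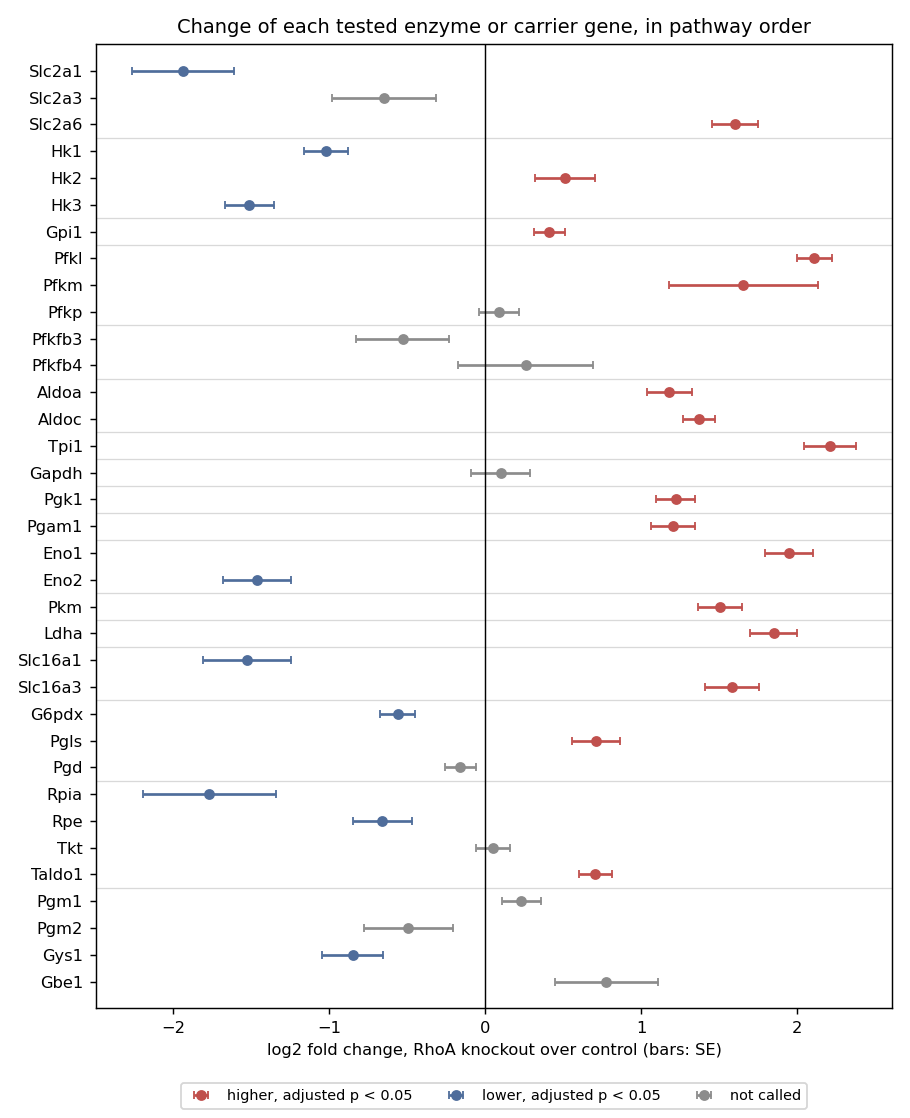
Log2 fold change of the knockout-labelled libraries over control (x axis) for the 35 tested genes in pathway order from top to bottom, with bars for the standard error of the edgeR fit and lines between steps. Red points were higher, blue points lower and grey points not called at an adjusted p of 0.05; from Aldoa to Ldha 8 of 10 points are red, between 1.18 and 2.21.

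The promoters of these genes were read for a short motif, because hypoxia-inducible factors, known activators of glycolytic genes, bind sites with the core letters ACGTG. Windows of 250 bases before each annotated start were taken from RefSeq on GRCm38.p6, and 35 of the 36 genes matched, with 48 windows. ACGTG on either strand (CACGT on the other) stood in 17 of the 48 windows, which is 35.4%, beside 16.6% of all 32851 windows of the same length. The median GC content was 59.8% in windows of the pathway genes and 52.4% in all windows. The palindrome CACGTG, the E-box letters bound by MYC and USF and a pair of overlapping matches to ACGTG, stood in 4 of the 48 windows (8.33%), beside 6.02% of all windows. By call, 10 of 26 windows of higher genes (38.5%), 3 of 10 of lower genes (30.0%) and 4 of 11 of genes not called (36.4%) held ACGTG. Windows of the same gene can overlap, and 1 match of Aldoa stands in 2 of its windows, both counted among those of higher genes. By gene, 14 of the 35 genes with a window held ACGTG in at least 1 of them. A match is a description of these letters only. The windows printed below belong to genes with large differences in both directions, with and without the letters, and 0 of their bases are annotated exon. Capitals mark the matches. Ldha, higher, had in the window shown the most matches of any of the 48 windows, 5 when each palindrome counts once per strand (chr7:46845554-46845803, plus strand). The other Ldha window had 0. Pgk1, higher, had 2 (chrX:106186850-106187099, plus strand), and Eno1, higher, had none in the window shown (chr4:150236458-150236707, plus strand). Slc16a1, lower, had 2 that form a single palindrome (chr3:104638414-104638663, plus strand), and Hk3, lower, had 1 (chr13:55021386-55021635, minus strand).
Ldha: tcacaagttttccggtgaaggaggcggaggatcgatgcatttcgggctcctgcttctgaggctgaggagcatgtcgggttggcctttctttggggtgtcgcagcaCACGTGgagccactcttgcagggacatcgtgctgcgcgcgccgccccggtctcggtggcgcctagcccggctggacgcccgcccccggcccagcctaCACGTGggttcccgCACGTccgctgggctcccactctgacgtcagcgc
Pgk1: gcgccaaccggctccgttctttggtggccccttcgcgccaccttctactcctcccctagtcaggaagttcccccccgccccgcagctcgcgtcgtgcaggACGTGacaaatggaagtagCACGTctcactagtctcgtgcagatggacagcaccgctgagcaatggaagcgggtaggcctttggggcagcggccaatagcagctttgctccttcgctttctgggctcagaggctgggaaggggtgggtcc
Eno1: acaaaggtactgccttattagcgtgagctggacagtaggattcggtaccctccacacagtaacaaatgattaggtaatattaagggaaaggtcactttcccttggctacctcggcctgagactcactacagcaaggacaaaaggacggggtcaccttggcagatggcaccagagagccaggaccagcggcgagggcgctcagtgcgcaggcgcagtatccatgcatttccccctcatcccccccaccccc
Slc16a1: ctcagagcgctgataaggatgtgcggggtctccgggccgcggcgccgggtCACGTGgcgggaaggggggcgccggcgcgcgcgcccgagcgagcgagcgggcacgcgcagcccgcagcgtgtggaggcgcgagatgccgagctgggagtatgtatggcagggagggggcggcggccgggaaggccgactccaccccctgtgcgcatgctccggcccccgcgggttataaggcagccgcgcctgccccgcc
Hk3: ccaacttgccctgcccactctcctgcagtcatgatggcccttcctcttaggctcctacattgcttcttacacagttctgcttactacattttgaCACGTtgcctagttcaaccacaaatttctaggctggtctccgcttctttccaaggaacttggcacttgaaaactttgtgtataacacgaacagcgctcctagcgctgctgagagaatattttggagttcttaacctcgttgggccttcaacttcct

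Glucose enters macrophages mainly through GLUT1, the product of Slc2a1 (chr4:119108711-119137983, plus strand). Slc2a1 had 36.6, 29.0 and 31.0 CPM in the knockout-labelled libraries, against 84.8, 93.6 and 191 CPM in the control libraries. The groups did not overlap, and control replicate 3 was far above its group. Slc2a1 was 3.83-fold lower in the knockout-labelled libraries (log2 fold change -1.94 ± 0.33, SE; edgeR adjusted p = 0.00306), and without control replicate 3 the log2 fold change was -1.47 (edgeR adjusted p = 8.61e-06). Slc2a6, which encodes GLUT6, a carrier of intracellular membranes, had 82.8, 71.4 and 74.9 CPM in the knockout-labelled libraries, against 30.1, 20.1 and 25.3 CPM in the control libraries. It was 3.03-fold higher without overlap (1.60 ± 0.14, edgeR adjusted p = 3.45e-06). Slc2a3, the gene of the high-affinity carrier GLUT3, averaged 1.88 ± 0.377 CPM in the knockout-labelled libraries and 2.94 ± 1.04 CPM in the control libraries (SD, n = 3 each) and did not pass (edgeR adjusted p = 0.143).

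Levels of different genes were compared per kb of exon. Summed, the 3 carrier genes had 33.2 ± 3.00 CPM per kb in the knockout-labelled libraries and 43.4 ± 16.7 CPM per kb in the control libraries (SD, n = 3 each), and the groups overlapped. The sum includes Slc2a6, whose product lies on intracellular membranes, so it does not stand for uptake at the surface. Slc2a1 alone had 9.18 ± 1.13 CPM per kb in the knockout-labelled libraries and 35.2 ± 16.9 CPM per kb in the control libraries, without overlap. The shares of Slc2a1 and Slc2a6 in the sum of the 3 genes did not overlap between the groups. Slc2a1 gave 28.6, 26.9 and 27.3% of it in the knockout-labelled libraries, against 71.0, 79.9 and 87.0% in the control libraries. Slc2a6 gave 70.6, 72.3 and 72.1% in the knockout-labelled libraries against 27.5, 18.7 and 12.6% in the control libraries. Slc2a6 was thus the most abundant of the 3 carriers per kb in all 3 knockout-labelled libraries, and Slc2a1 in all 3 control libraries. Shares within a library do not depend on how libraries are scaled, and for each of these an exact two-sided permutation test gave p = 0.1, the smallest that 3 samples against 3 allow.

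Hexokinase traps glucose as glucose-6-phosphate. Hk3, the isozyme gene typical of myeloid cells, had 9.49, 9.74 and 7.56 CPM in the knockout-labelled libraries, against 21.9, 25.1 and 29.4 CPM in the control libraries. Hk1, the widely expressed isozyme gene, had 14.6, 14.3 and 14.2 CPM in the knockout-labelled libraries against 23.5, 30.5 and 33.0 CPM in the control libraries. Both were lower in every knockout-labelled library than in any control library, Hk3 2.85-fold (-1.51 ± 0.15, edgeR adjusted p = 9.43e-06) and Hk1 2.02-fold (-1.02 ± 0.14, edgeR adjusted p = 0.000102). Hk2, the inducible isozyme gene, averaged 7.11 ± 0.823 CPM in the knockout-labelled libraries and 4.99 ± 0.742 CPM in the control libraries (SD, n = 3 each; log2 fold change 0.51 ± 0.19; edgeR adjusted p = 0.0494). That call was lost under 9 of the 16 alternatives, with adjusted p up to 0.18. Summed per kb, hexokinase genes had 5.33, 5.52 and 5.03 CPM per kb in the knockout-labelled libraries, against 9.54, 11.1 and 12.8 CPM per kb in the control libraries, a ratio of 0.475. Hk2 made up 19.6, 21.9 and 26.2% of this sum in the knockout-labelled libraries and 8.85, 6.36 and 7.46% in the control libraries. By union of exons Hk3 was the largest contributor in all 6 libraries, with 40.8 to 48.4% in the knockout-labelled libraries against 61.5 to 62.3% in the control libraries. That rank depends on the length used. Hk1 has 8532 bp by union and 4278 bp in its longest transcript, against 3682 and 3219 bp for Hk3. With the longest transcripts Hk1 lies above Hk3 in the knockout-labelled libraries, and Hk3 stays the largest in the control libraries.

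Gpi1, which interconverts glucose-6-phosphate and fructose-6-phosphate, had 293, 301 and 323 CPM in the knockout-labelled libraries, against 225, 229 and 235 CPM in the control libraries. The groups did not overlap, and the difference was 1.33-fold (0.41 ± 0.10, edgeR adjusted p = 0.00565).

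Phosphofructokinase, the committed step, is built from 3 kinds of subunit. Pfkl, the liver-type subunit gene (chr10:77986947-78010083, minus strand), had 131, 141 and 159 CPM in the knockout-labelled libraries, against 32.6, 31.7 and 35.7 CPM in the control libraries. It was 4.31-fold higher with no overlap (2.11 ± 0.11, edgeR adjusted p = 6.55e-08), the lowest p among the 35 genes. Pfkp, the platelet-type subunit gene, had 106, 102 and 95.9 CPM in the knockout-labelled libraries against 81.5, 89.7 and 114 CPM in the control libraries, which overlapped (0.09 ± 0.13, edgeR adjusted p = 0.606). With a correction for exon length the value of Pfkp was 0.67 with an edgeR adjusted p of 0.00199. Pfkm, the muscle-type subunit gene, had 3.88, 3.87 and 2.27 CPM in the knockout-labelled libraries against 0.441, 1.95 and 0.814 CPM in the control libraries (1.65 ± 0.48, edgeR adjusted p = 0.0144). Its call was lost under 4 alternatives (edgeR adjusted p up to 0.0578), and its exons overlap those of Gm26513 on the same strand over 341 bp, which held up to 79.4% of its count in a library, and those of Senp1 on the other strand over 18 bp, which held up to 1126%.

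Pfkl held the largest share of the summed subunit genes per kb in the knockout-labelled libraries, and Pfkp in the control libraries. The sum was 28.6, 29.9 and 31.7 CPM per kb in the knockout-labelled libraries, against 11.1, 12.02 and 14.1 CPM per kb in the control libraries. Pfkl gave 68.4, 70.7 and 75.3% of it in the knockout-labelled libraries, against 44.0, 39.5 and 37.9% in the control libraries, and Pfkp gave 27.5, 25.5 and 22.6% in the knockout-labelled libraries against 54.8, 55.6 and 60.4% in the control libraries. The exact two-sided permutation p was 0.1 for each of these shares. Pfkfb3 and Pfkfb4, whose products make and break fructose-2,6-bisphosphate, the strong activator of phosphofructokinase, were low in all libraries. Pfkfb3 averaged 2.81 ± 0.600 CPM in the knockout-labelled libraries and 4.06 ± 1.43 CPM in the control libraries (edgeR adjusted p = 0.178). Pfkfb4 averaged 1.69 ± 0.809 CPM in the knockout-labelled libraries against 1.41 ± 0.373 CPM in the control libraries (SD, n = 3 each; edgeR adjusted p = 0.667).

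**Figure D2:**
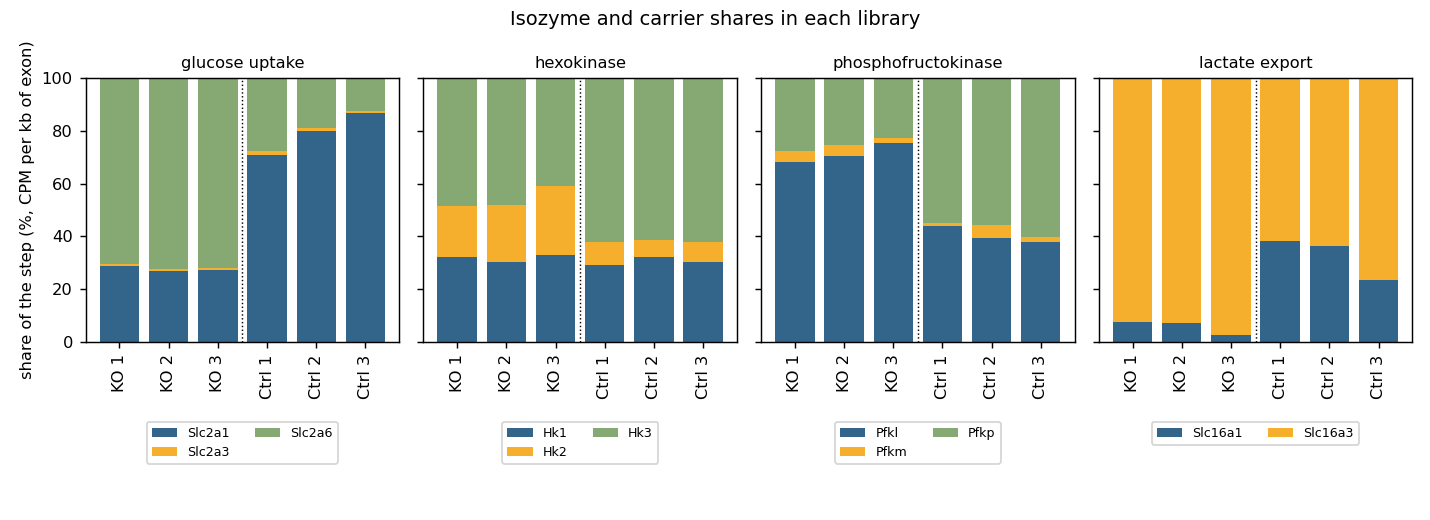
Share of each isozyme or carrier gene in the summed CPM per kb of exon of its step (y axis, %), in each library; KO 1 to 3 are the knockout-labelled libraries and Ctrl 1 to 3 the control libraries. Slc2a6, Hk2, Pfkl and Slc16a3 take larger shares in all KO libraries, and Slc2a1, Hk3, Pfkp and Slc16a1 smaller ones.

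Aldolase cuts fructose-1,6-bisphosphate into triose phosphates, and Tpi1 interconverts the products. Aldoa (chr7:126795234-126800751, minus strand) had 4117, 4058 and 4649 CPM in the knockout-labelled libraries, against 1699, 1706 and 2253 CPM in the control libraries. Aldoc, the brain-type isozyme gene, had 88.8, 91.0 and 98.1 CPM in the knockout-labelled libraries against 33.5, 36.4 and 37.8 CPM in the control libraries. Both were higher without overlap, Aldoa 2.27-fold (1.18 ± 0.14, edgeR adjusted p = 3.80e-05) and Aldoc 2.58-fold (1.37 ± 0.10, edgeR adjusted p = 8.84e-07). Aldoa made up 98.0 to 98.2% of aldolase gene levels per kb in the knockout-labelled libraries and 98.1 to 98.5% in the control libraries, which overlapped. Tpi1 (chr6:124810586-124814296, minus strand) had 1095, 1061 and 1409 CPM in the knockout-labelled libraries, against 233, 223 and 314 CPM in the control libraries. At 4.63-fold higher (2.21 ± 0.17, edgeR adjusted p = 8.84e-07) it had the largest log2 fold change of the 35 genes, and again the groups lay far apart.

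Gapdh oxidises glyceraldehyde-3-phosphate, and its annotated gene held few of the counts of its sequence family. The Gapdh row (chr6:125161715-125166467, minus strand) had 91.1, 77.8 and 103 CPM in the knockout-labelled libraries, against 57.6, 99.4 and 96.7 CPM in the control libraries, with overlap (0.10 ± 0.19, edgeR adjusted p = 0.712). That is 21.9 ± 3.01 CPM per kb in the knockout-labelled libraries and 20.5 ± 5.66 CPM per kb in the control libraries (SD, n = 3 each), far under the levels of its neighbours Tpi1 and Pgk1. Many annotated pseudogenes match the Gapdh transcript with at least 95% identity along 200 bp or more. Of these 17 held 10% or more of the Gapdh count in at least 1 library. They are Gm13394, Gm5559, Gm7336, Gm12070, Gm2606, Gm2451, Gm12033, Gm12671, Gapdh-ps15, Gm12537, Gm14760, Gm10359, Gm10293, Gm13292, Gm2574, Gm3272 and Gm5138. The pseudogene Gm13394, 99.9% identical over 1000 bp, held 102221, 110763 and 116812 counts in the knockout-labelled libraries and 55463, 42890 and 60654 counts in the control libraries. The Gapdh row itself held 7477, 6954 and 7808 counts in the knockout-labelled libraries against 4444, 5818 and 5700 in the control libraries, fewer in every library than this single pseudogene.

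With 77 such copies added, Gapdh reached 3596, 3565 and 4331 CPM in the knockout-labelled libraries, against 2672, 2557 and 3629 CPM in the control libraries. The own row was 2.18 to 2.53% of that sum in the knockout-labelled libraries and 2.16 to 3.89% in the control libraries. The sums overlapped, since control replicate 3 lay above knockout replicates 1 and 2, and the log2 fold change was 0.38 ± 0.16 (edgeR adjusted p = 0.0667). On their own rows, Gm13394 (1.62-fold, edgeR adjusted p = 0.00365), Gm7336, Gm2606, Gm12671, Gm12537, Gm14760, Gm10359 and Gm2574 were higher. The other copies named above did not pass in either direction. Gapdh did not pass with or without its copies. Its value is uncertain because how reads with several matches were counted is not given in the sources used here.

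**Figure D3:**
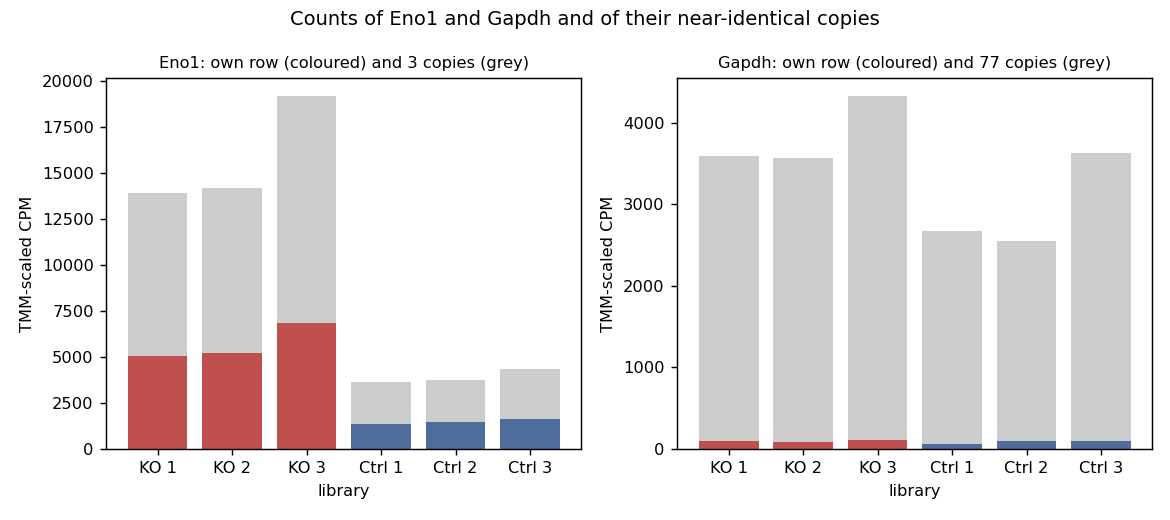
TMM-scaled CPM (y axis, from 0) of the annotated gene (coloured) and of its near-identical copies stacked on it (grey) for Eno1 with 3 copies (left) and Gapdh with 77 (right); KO 1 to 3 are the knockout-labelled libraries and Ctrl 1 to 3 the control libraries. The Eno1 sums are 13920.3 to 19176 CPM in the knockout-labelled libraries against 3612 to 4351 CPM in the control libraries, and the Gapdh sums overlap between the groups.

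Pgk1 and Pgam1 carry the next steps, in which Pgk1 makes the first ATP of the lower pathway. Pgk1 (chrX:106187100-106203699, plus strand) had 1847, 1875 and 2087 CPM in the knockout-labelled libraries, against 836, 746 and 911 CPM in the control libraries. Pgam1 had 1599, 1566 and 2156 CPM in the knockout-labelled libraries against 756, 765 and 787 CPM in the control libraries. Both were higher without overlap and by similar folds, 2.33-fold for Pgk1 (1.22 ± 0.12, edgeR adjusted p = 9.05e-06) and 2.31-fold for Pgam1 (1.21 ± 0.14, edgeR adjusted p = 2.83e-05). Copies added at most 4.55% to the count of Pgam1.

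Enolase makes phosphoenolpyruvate. Eno1 (chr4:150236721-150248879, plus strand), the form found in most tissues, had 5066, 5186 and 6850.0 CPM in the knockout-labelled libraries, against 1357, 1437 and 1641 CPM in the control libraries. It was 3.86-fold higher with no overlap (1.95 ± 0.15, edgeR adjusted p = 1.24e-06). Eno1b, a gene on chromosome 18 that is 99.5% identical over 1736 bp, held 88.9 to 93.8% of the Eno1 count, and the pseudogene Gm4735, 99.6% identical over 1302 bp, held 69.8 to 83.2%. With 3 copies added, the sum was 13920.3, 14191 and 19176 CPM in the knockout-labelled libraries, against 3612, 3757 and 4351 CPM in the control libraries. The log2 fold change of the sum was 2.02 ± 0.16 (edgeR adjusted p = 1.14e-06), so the direction and the call of Eno1 were the same with and without its copies. The rule for reads with several matches is not given, so the same read may be counted on more than 1 of these rows. The sum is therefore no separate check of the Eno1 row. Eno2, the neuronal enolase gene, had 4.55, 3.36 and 2.71 CPM in the knockout-labelled libraries, against 10.6, 8.47 and 10.2 CPM in the control libraries. It was 2.76-fold lower without overlap (-1.46 ± 0.22, edgeR adjusted p = 0.000181), the only gene from aldolase to lactate dehydrogenase that was lower among those tested.

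Pyruvate kinase, encoded in macrophages by Pkm (chr9:59656368-59679375, plus strand), closes glycolysis. Pkm had 19660, 19931 and 25386 CPM in the knockout-labelled libraries, against 7501, 7620 and 7773 CPM in the control libraries. Per kb, on own rows without copies, it was the most abundant of the pathway genes in both groups. Its level was 4331 ± 646 CPM per kb in the knockout-labelled libraries and 1526 ± 27.3 CPM per kb in the control libraries (SD, n = 3 each). The difference was 2.84-fold without overlap (1.505 ± 0.141, edgeR adjusted p = 4.74e-06). The counts are per gene, so the splice forms PKM1 and PKM2 were not separated. Ldha (chr7:46841475-46855627, plus strand), whose subunit favours the making of lactate, had 11552, 11229 and 15259 CPM in the knockout-labelled libraries, against 3433, 3454 and 3679.7 CPM in the control libraries. It was 3.60-fold higher (1.85 ± 0.15, edgeR adjusted p = 1.48e-06), and all 3 knockout-labelled libraries lay above every control library. Of its 2 promoter windows, the one printed above held 5 matches counted per strand, and the other held 0. Which start was used was not tested. For 9 of the 10 tested genes from aldolase to lactate dehydrogenase knockout replicate 3 was the highest library of its group, and for 8 of 10 control replicate 3 was.

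The order of levels per kb given here is that of own rows without copies, and Gapdh was left out of it. Among the copies, Eno1b, Gm4735 and Gm13394 had mean levels of 2788, 3590 and 1340 CPM per kb in the knockout-labelled libraries. In the control libraries these were 714, 807 and 827 CPM per kb, so with copies added the order may differ. On own rows, Pkm and Ldha came first in the knockout-labelled libraries, at 4331 ± 646 and 3831 ± 677 CPM per kb. Pkm lay above Ldha in each of those 3 libraries, by 441 to 593 CPM per kb. Aldoa followed at 1469 ± 112 CPM per kb, then Eno1 at 1060 ± 185, Pgam1 at 895 ± 167 and Pgk1 at 863 ± 58.5, then Tpi1 at 432 ± 69.7. Within a knockout-labelled library Eno1 lay above Pgam1 by 135 to 186 CPM per kb and above Pgk1 by 119 to 343 CPM per kb, while Pgam1 and Pgk1 changed places between libraries. In the control libraries the order was Pkm at 1526 ± 27.3, Ldha at 1064 ± 41.3, Aldoa at 648 ± 109, Pgam1 at 388 ± 8.12, Pgk1 at 370.4 ± 37.0, Eno1 at 275 ± 27.3 and Tpi1 at 93.2 ± 18.1 CPM per kb (SD, n = 3 each). Pgam1 and Pgk1 changed places between control libraries too. By union of exons Eno1 thus stood above Pgam1 and Pgk1 in all 3 knockout-labelled libraries and below them in all 3 control libraries, on its own row without the copies. The place of Eno1 rests on that length, 5379 bp, while its longest transcript has 2027 bp. For Pgam1 the lengths are 1982 and 1775 bp, and for Pgk1 2244 and 1825 bp. With the longest transcripts Eno1 lies above both in the control libraries too, so the change of order is not kept. Gpi1 had the highest mean level of the genes upstream of aldolase in both groups, at 47.4 ± 2.39 CPM per kb in the knockout-labelled libraries against 35.6 ± 0.804 CPM per kb in the control libraries.

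**Figure D4:**
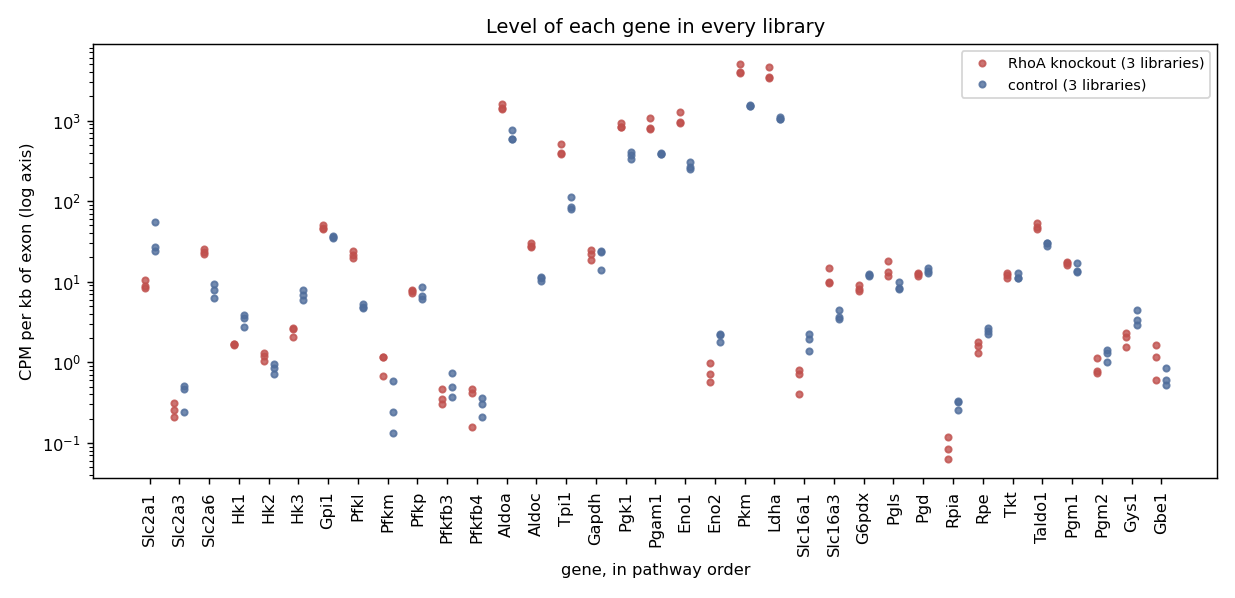
CPM per kb of exon (y axis, log scale) of each counted gene in pathway order (x axis), with 1 point per library, red for the 3 knockout-labelled libraries and blue for the 3 control libraries. Pkm and Ldha lie highest in both groups, on own rows without copies. All red points lie below all blue points for Slc2a1, Hk1, Hk3, Eno2, Slc16a1, G6pdx, Pgd, Rpia, Rpe and Gys1.

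Lactate leaves through monocarboxylate carriers, and the pair of carrier genes moved in opposite directions. Slc16a3, which encodes MCT4, the low-affinity exporter of glycolytic cells, had 53.5, 51.5 and 78.3 CPM in the knockout-labelled libraries, against 19.2, 18.1 and 23.8 CPM in the control libraries. Slc16a1, which encodes MCT1, had 3.53, 3.18 and 1.76 CPM in the knockout-labelled libraries against 9.88, 8.54 and 6.02 CPM in the control libraries. Neither pair of groups overlapped. Slc16a3 was 2.99-fold higher (1.58 ± 0.17, edgeR adjusted p = 1.47e-05) and Slc16a1 was 2.88-fold lower (-1.53 ± 0.28, edgeR adjusted p = 0.000868). Slc16a3 made up 92.6, 93.1 and 97.4% of their sum per kb in the knockout-labelled libraries, against 61.8, 63.8 and 76.7% in the control libraries (exact two-sided permutation p = 0.1). Bsg, the basigin gene whose product both carriers need to reach the cell surface, had 563 ± 93.0 CPM in the knockout-labelled libraries and 159 ± 32.1 CPM in the control libraries (SD, n = 3 each; 1.82 ± 0.16, edgeR adjusted p = 3.34e-06).

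The oxidative arm of the pentose phosphate pathway did not move as a block. G6pdx, the entry enzyme gene that sets NADPH output, had 24.9, 23.6 and 27.9 CPM in the knockout-labelled libraries, against 37.7, 38.5 and 36.4 CPM in the control libraries, and was 1.47-fold lower without overlap (-0.56 ± 0.11, edgeR adjusted p = 0.00151). Its exons overlap those of Ikbkg on the other strand, which held up to 39.5% of its count. Pgls, the lactonase gene, had 49.97, 44.6 and 68.0 CPM in the knockout-labelled libraries against 30.9, 31.4 and 37.1 CPM in the control libraries and was 1.64-fold higher without overlap (0.71 ± 0.15, edgeR adjusted p = 0.00268). Pgd, the second NADPH-making enzyme gene, had 81.96, 80.4 and 76.3 CPM in the knockout-labelled libraries against 95.6, 87.7 and 83.2 CPM in the control libraries and did not pass (-0.16, edgeR adjusted p = 0.229). Its value was 0.02 when libraries were scaled by their totals alone. Summed per kb, the 3 genes had 34.1, 32.0 and 38.9 CPM per kb in the knockout-labelled libraries, against 35.3, 34.4 and 34.6 CPM per kb in the control libraries, and the groups overlapped.

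In the non-oxidative arm Taldo1, the transaldolase gene, had 104, 97.0 and 115 CPM in the knockout-labelled libraries, against 66.4, 60.8 and 66.4 CPM in the control libraries. It was 1.63-fold higher without overlap (0.71 ± 0.10, edgeR adjusted p = 0.000184) and the most abundant pentose phosphate gene per kb, at 48.5 ± 4.11 CPM per kb in the knockout-labelled libraries against 29.7 ± 1.48 CPM per kb in the control libraries (SD, n = 3 each). Tkt, the transketolase gene, averaged 88.4 ± 6.29 CPM in the knockout-labelled libraries and 85.4 ± 7.42 CPM in the control libraries and did not pass (edgeR adjusted p = 0.737). The isomerase gene Rpia was sparse, with 28, 40 and 48 counts in the knockout-labelled libraries, against 133, 80 and 103 counts in the control libraries. At 0.341, 0.447 and 0.631 CPM in the knockout-labelled libraries against 1.72, 1.37 and 1.75 CPM in the control libraries it was 3.40-fold lower without overlap (-1.77 ± 0.43, edgeR adjusted p = 0.00516). Rpe, the epimerase gene, averaged 4.85 ± 0.775 CPM in the knockout-labelled libraries against 7.65 ± 0.658 CPM in the control libraries (SD, n = 3 each; -0.66 ± 0.19, edgeR adjusted p = 0.0139). The call of Rpe was lost under 3 alternatives, with an adjusted p of up to 0.143, and its exons overlap those of Kansl1l, which held up to 24.9% of its count on the other strand. Per kb the 4 genes summed to 62.1 ± 4.42 CPM per kb in the knockout-labelled libraries and 44.1 ± 2.04 CPM per kb in the control libraries (SD, n = 3 each), without overlap, and most of both sums came from Taldo1.

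Of the genes around glycogen, Gys1, the glycogen synthase gene, was lower, with 9.82, 11.1 and 7.39 CPM in the knockout-labelled libraries, against 13.8, 16.1 and 21.2 CPM in the control libraries. The groups did not overlap, and the difference was 1.80-fold (-0.85 ± 0.19, edgeR adjusted p = 0.00369). Exons of Gys1 and of Ruvbl2, on the other strand, overlap by 310 bp, Ruvbl2 held up to 1217% of the Gys1 count, and without the strand setting reads of the overlap cannot be told apart. Pgm1 in this annotation is the phosphoglucomutase gene of chromosome 4, and had 51.5, 47.5 and 50.5 CPM in the knockout-labelled libraries, against 39.2, 38.1 and 50.1 CPM in the control libraries. It did not pass with all 6 libraries (0.23, edgeR adjusted p = 0.155), and it did without control replicate 3 (0.37, edgeR adjusted p = 0.0131). Pgm2, of chromosome 5, averaged 2.28 ± 0.583 CPM in the knockout-labelled libraries against 3.21 ± 0.542 CPM in the control libraries, and Gbe1, the branching enzyme gene, averaged 6.02 ± 2.73 CPM in the knockout-labelled libraries against 3.52 ± 0.928 CPM in the control libraries (SD, n = 3 each). Neither passed, at edgeR adjusted p of 0.189 for Pgm2 and 0.0787 for Gbe1.

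A further 92 genes of the same pathways were sorted into 7 lists by role, and 55 of them were tested. Of these 16 were higher, 15 lower and 24 not called, and their median log2 fold change was 0.08. Over all genes tested 21% were higher and 22.3% lower, and the counts of each list below are to be read beside those shares. No list was tested as a set. Regulators of glycolytic genes had 3 higher and 7 lower of 16 tested. Hif1a, the oxygen-regulated activator of glycolytic genes, had 7.09 ± 1.75 CPM in the knockout-labelled libraries and 24.2 ± 2.92 CPM in the control libraries (SD, n = 3 each; -1.77 ± 0.18, edgeR adjusted p = 9.49e-06). Its transcript was lower where most of the lower pathway was higher. Transcript counts do not measure the protein, and the part of Hif1a in the differences of the lower pathway was not tested. Rptor, which encodes the Raptor subunit of mTORC1, had 7.71 ± 1.23 CPM in the knockout-labelled libraries against 14.5 ± 0.959 CPM in the control libraries (-0.91 ± 0.16, edgeR adjusted p = 0.0006), and its difference did not pass with the correction for exon length (-0.32, edgeR adjusted p = 0.0966).

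Isozymes typical of other tissues had 3 higher and 1 lower of 5 tested, among them Eno3, the muscle enolase gene, with 13.96 ± 0.570 CPM in the knockout-labelled libraries and 3.48 ± 0.411 CPM in the control libraries (2.00 ± 0.16, edgeR adjusted p = 1.75e-06). The list of other pentose phosphate and ribose genes had 5 higher and 0 lower of 8 tested at the threshold. That count includes Khk, whose product acts on fructose, and Prps1l3, whose value is uncertain. Khk, which encodes fructokinase, had 19.8 ± 1.84 CPM in the knockout-labelled libraries and 6.72 ± 0.691 CPM in the control libraries (1.56, edgeR adjusted p = 4.63e-06). Prps2, which makes the ribose donor for nucleotides, had 12.3 ± 0.653 CPM in the knockout-labelled libraries against 5.19 ± 0.714 CPM in the control libraries (SD, n = 3 each; 1.24, edgeR adjusted p = 8.07e-05). Prps1l3 was also higher (1.79, edgeR adjusted p = 1.41e-06), but Prps1 matches it at 95.3% over 319 bp and held at least 546% of its count. Gluconeogenesis genes had 1 higher and 1 lower of 5 tested, and Pck2, the mitochondrial phosphoenolpyruvate carboxykinase gene, had 18.4 ± 2.08 CPM in the knockout-labelled libraries against 38.1 ± 2.87 CPM in the control libraries (-1.05 ± 0.12, edgeR adjusted p = 3.06e-05).

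Glycogen turnover genes had 2 higher and 3 lower of 13 tested. Gyg, which encodes glycogenin, the primer of glycogen, had 28.1 ± 2.11 CPM in the knockout-labelled libraries and 15.98 ± 1.07 CPM in the control libraries (SD, n = 3 each; 0.82, edgeR adjusted p = 0.000171). Phkg2, a catalytic subunit gene of phosphorylase kinase, was lower (-0.53, edgeR adjusted p = 0.00302, and 0.0698 when libraries were scaled by totals alone). Pygb, the brain-type glycogen phosphorylase gene, was higher at 0.52 (edgeR adjusted p = 0.0441), a call that was lost with the replicate block, without replicate 3 of both groups and without any 1 of the 3 knockout-labelled libraries, control replicate 2 or control replicate 3 (edgeR adjusted p from 0.0557 to 0.193). Transporter paralogs had 1 higher and 1 lower of 3 tested, and Slc2a8, an intracellular hexose carrier gene, had 7.24 ± 1.24 CPM in the knockout-labelled libraries against 2.76 ± 1.48 CPM in the control libraries (1.39 ± 0.35, edgeR adjusted p = 0.00631). Monocarboxylate carrier paralogs and chaperones had 1 higher, Bsg, and 2 lower of 5 tested. Slc16a6 was lower at -0.58 (edgeR adjusted p = 0.0237), a call lost when libraries were scaled by totals alone and without knockout replicate 3, control replicate 1 or control replicate 2 (edgeR adjusted p from 0.0534 to 0.228), and its transcript overlaps that of Amz2 on the other strand.

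Across all genes the fold change ran with exon length. In 5 bins of exon length holding about equal numbers of genes, the median log2 fold change was 0.32 in bin 1 (up to 1750 bp), 0.26, 0.04 and -0.19 in bins 2 to 4, and -0.47 in bin 5 (6975 bp and over). The pathway genes had a median exon length of 4426 bp, against 3856 bp for all genes tested. Those in bins 2 to 4, with 9, 9 and 12 genes, had medians of 0.71, 0.71 and 0.46, each above the median of all genes of the bin, and the 5 genes in bin 5 had -0.53. Within bin 4, from 4664 to 6971 bp, lay Pfkl, Eno1 and Pkm, which were higher, and Rpia and Gys1, which were lower. With a length correction in the fit the median of the pathway genes was 0.43, and from aldolase to lactate dehydrogenase 8 genes were higher and 1 lower, as without it. The part of exon length in the other differences was not tested.

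**Figure D5:**
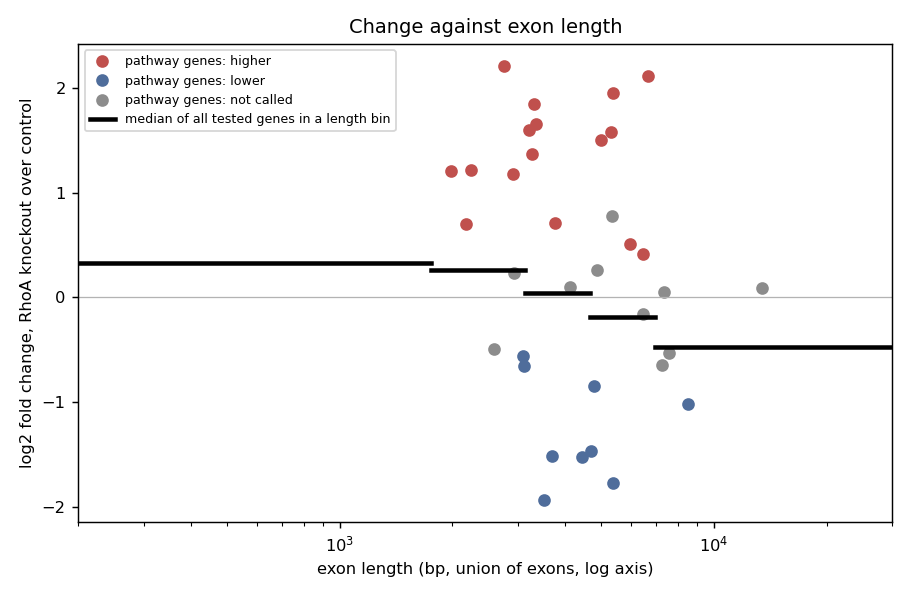
Log2 fold change of the knockout-labelled libraries over control (y axis) against exon length in bp (x axis, log scale) for the 35 tested pathway genes, coloured by call, with black bars for the median of all tested genes in each of 5 length bins. The black bars go down from 0.32 to -0.47, and every red point, from 0.41 to 2.21, lies above the bar at its length.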

How the data were processed

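RNA of 6 RAW264.7 samples was extracted with Trizol and made into Illumina libraries, per the labels' protocols. The authors deposited 1 table of whole-number, unnormalized counts for 55487 genes, and 0 of its value columns were left out. GRCm38 is the genome build that the submitters' processing notes name. Which aligner and counter were used, with which strand setting and which rule for reads with several matches, is not given in the sources used here. Gene IDs were matched to GENCODE M21, and 55227 had a symbol.

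Counts were compared with edgeR 4.0.16 in R 4.3.3 (TMM factors, filterByExpr, robust glmQLFit, glmQLFTest), and p-values of the 12930 genes were adjusted by Benjamini-Hochberg, with a threshold of 0.05. A standard error is the size of the log2 fold change over the root of its F statistic. The procedure was also run on simulated counts in which only a small set of genes changed. That run does not test the scaling in data where 43.2% of genes passed. Levels per kb use the union of a gene's exons. Copies were sought with blastn 2.17.0 at 95% identity over at least 200 bp, and named where they held 10% or more of a count in a library. A floor of 3 counts was 0.0336 to 0.0513 CPM. Counting floors cover counting error only.

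All 36 genes were named in pathway order, with values in every library for the most abundant gene of each step and for each called gene with at least a 2-fold difference, and by means or values otherwise. Of each of 7 lists of other pathway genes, up to 3 called genes with the smallest p and an average log2 CPM of at least 3 were named, or the most abundant one where none qualified (Slc2a8). The genes, lists and tests were chosen with earlier results of these data known. Over all genes tested, same-numbered libraries did not deviate together (correlations of -0.0059, 0.028 and 0.014), so numbers were not taken as pairs. Correlations over all genes cannot exclude a shared deviation in a part of them. From aldolase to lactate dehydrogenase, replicate 3 was the highest of its group for 9 of 10 genes (knockout-labelled) and 8 of 10 (control). Alternatives were other scalings, filters, DESeq2 1.42.0, a length correction (a lowess trend as offset), a replicate block, copies added, the longest transcript as length and leaving out each library.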

Additional observations from a re-analysis of the deposited data

How the results depend on the processing

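Of the 25 pathway genes called, 22 kept direction and call under all 16 alternatives tried (15 planned, and 1, without replicate 3 of both groups, added after the data had been seen). The exceptions were Hk2 (edgeR adjusted p from 0.0125 to 0.18), Pfkm (0.0015 to 0.0578) and Rpe (0.00522 to 0.143). Across alternatives 14 to 19 pathway genes were higher and 8 to 10 lower. Their median log2 fold change, 0.26 as reported, was 0.41 with totals alone, 0.43 with the length correction, 0.38 with copies added and 0.23 to 0.42 when each library was left out in turn. Other pathway genes called lower, 15 as reported, were 8 with totals alone and 9 to 14 when each library was left out. Log2 fold changes that turned in sign were of genes not called: Pgd was 0.018 with totals alone and 0.093 with the length correction. With libraries left out, Tkt ranged from -0.018 to 0.13, Pfkfb4 from -0.078 to 0.59, Pfkp from -0.0071 to 0.28 and Gapdh from -0.11 to 0.21. Slc2a3, Pfkp, Tkt, Pgm1 and Gbe1, not called as reported, passed under at least 1 alternative. The causes were not tested. The numbers of the libraries were not taken as pairs. With the replicate block 2634 genes were higher and 2738 lower, and of the pathway genes 16 and 9, while the call of Hk2 was lost (0.51, edgeR adjusted p = 0.0633). The share differences in percentage points kept their direction, and that of Hk2 was 11.6 with the longest transcript as length. Depth limits Rpia, Pfkm and Pfkfb4, the genes with the fewest counts among those tested, and with 3 libraries a group no exact permutation p can go below 0.1.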
